A study of Homo sapiens with 3 samples.

Results

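Transcripts of 30 cell cycle genes, 15 of S phase and 15 of the G2 phase and mitosis (G2/M), were followed cell by cell in UCLA1, a human embryonic stem cell line in established use. The 30 members were taken by their gene symbols from a fixed list, and all 30 were found among the 36601 genes of the deposited matrices. The cells came from a culture that the labels call GiMO, a culture of human pluripotent stem cells under Geltrex, a basement membrane extract. Droplet libraries were made on day 1, day 2 and day 3, with 1 library per day, all from the same line. The series title concerns the response to BMP4, a signalling protein of the early embryo, but no label tells whether, or on which day, it was added. Because each day is 1 library, day, library and any batch cannot be told apart, replicate error is unknown, and differences between days carry no p-value. Intervals are at the 95% level and reflect counting error alone.

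A dividing cell copies its DNA in S phase and separates the copies in mitosis, and each step has its own set of transcripts. E2F factors switch on the genes for the replication machinery as cells enter S phase, and a later wave, driven through the CHR promoter element and CCAAT boxes, brings up the cyclins, kinases and spindle proteins of G2 and mitosis. Human pluripotent stem cells are known for a short G1 phase, so that at any moment a large part of them is in S phase or G2, and cell cycle timing is known to shift as they leave pluripotency.

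Because these waves are tied to known promoter elements, the promoters of the members were searched for them, and 4 are shown, those of the S member and the G2/M member with the largest and the smallest ratio of day 2 over day 1 among the members in the table. Each is the 250 bases before the start that RefSeq gives on GRCh38.p14, a table that held 23 of the 30 members (13 S and 10 G2/M). They lie at chr3:127598161-127598410 (MCM2, plus strand), chr16:85688955-85689204 (GINS2, minus strand), chr17:40417897-40418146 (TOP2A, minus strand) and chr16:23678639-23678888 (PLK1, plus strand). For GINS2 and PLK1 this start lies inside the gene span given further on, so their windows lie downstream of that span's 5′ end. A CHR was searched as TTTGAA. The variant TTCGAA was counted with it. Capitals mark a CHR, a CCAAT box or an E2F site (TTTCCCGC, TTTCGCGC, TTTGCCGC or TTTGGCGC) on either strand.
MCM2: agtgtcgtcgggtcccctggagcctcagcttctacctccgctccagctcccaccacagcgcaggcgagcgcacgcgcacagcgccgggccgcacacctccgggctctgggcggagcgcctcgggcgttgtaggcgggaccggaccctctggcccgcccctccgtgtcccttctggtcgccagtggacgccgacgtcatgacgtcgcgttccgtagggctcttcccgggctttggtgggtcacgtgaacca
GINS2: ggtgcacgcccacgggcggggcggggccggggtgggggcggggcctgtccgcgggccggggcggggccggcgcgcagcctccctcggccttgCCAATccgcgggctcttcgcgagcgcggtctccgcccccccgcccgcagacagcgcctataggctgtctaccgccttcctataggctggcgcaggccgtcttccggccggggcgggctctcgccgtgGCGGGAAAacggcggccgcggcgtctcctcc
TOP2A: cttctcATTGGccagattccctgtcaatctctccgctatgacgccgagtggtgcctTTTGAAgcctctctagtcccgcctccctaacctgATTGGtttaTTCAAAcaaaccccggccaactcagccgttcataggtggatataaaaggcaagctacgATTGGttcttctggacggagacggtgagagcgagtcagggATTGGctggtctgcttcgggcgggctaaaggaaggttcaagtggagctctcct
PLK1: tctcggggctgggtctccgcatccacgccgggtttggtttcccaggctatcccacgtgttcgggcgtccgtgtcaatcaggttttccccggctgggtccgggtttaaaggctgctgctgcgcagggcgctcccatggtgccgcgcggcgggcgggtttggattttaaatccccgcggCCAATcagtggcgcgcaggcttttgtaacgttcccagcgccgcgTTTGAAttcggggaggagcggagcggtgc
The MCM2 window held none of these letters. In GINS2 an E2F site began 31 bases before the start and a CCAAT box 158 bases before it. TOP2A had 2 CHR matches and 4 CCAAT boxes, and PLK1 had a CHR match 29 bases and a CCAAT box 73 bases before the start. A CCAAT box was found in 10 of the 10 G2/M promoters and 9 of the 13 S promoters, beside 33.0% of all 27305 promoters of the same length. A CHR was found in 5 of 10 G2/M and 2 of 13 S promoters, beside 14.6% of all. An E2F site was found in 1 of 10 G2/M and 5 of 13 S promoters, beside 2.79% of all. No match in the 4 windows shown overlapped another, and a match describes letters in a window, not bound protein.

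The matrices held 4889, 10580 and 7860 barcodes on days 1, 2 and 3, with 177597152, 140291909 and 154373927 UMIs (unique molecular identifiers, each standing for 1 captured transcript). After filtering, 3533, 7224 and 6804 cells remained, with medians of 41457, 15582.5 and 19179.5 UMIs per cell. Because the day 1 cells were the deepest, per-cell values below use cells thinned at random to 5000 UMIs, which left 3499, 6747 and 6675 cells. Pairs of libraries shared 5 to 11 cell barcodes. The 8 pluripotency markers, which define the line, summed to 2544, 2468 and 1147 CPM, and the 9 mesoderm markers to 11.2, 193 and 1862 CPM, so the cells of day 3 had less of the former and more of the latter. Fibroblast feeder markers, 7 genes, summed to 307, 233 and 141 CPM, with 1 of 7 at 0 on day 1. Only 4, 3 and 4 of them were above 2 CPM, so these sums do not by themselves show feeder cells. Their part in the results was not tested.

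Both lists were expressed on every day, and they differed in how they stood between days. Levels are CPM, the summed UMIs of a gene in all kept cells of 1 library, scaled to a library total of 1000000 UMIs. A gene is called higher or lower when its ratio between libraries is at least 1.5 with an interval that excludes 1, among genes that reach 2 CPM in 1 of the libraries, as all 30 members did. On day 2, 6 of 15 G2/M members were higher than on day 1 and 0 were lower, while 21.1% of all 14228 genes were called higher and 5.62% lower. Of the S members 1 of 15 was higher and 0 were lower. By day 3, 6 of 15 G2/M members were higher than on day 1 and 0 lower, beside 32.1% of 14590 genes higher and 17.8% lower, and among the S members 2 were higher and 2 lower. The share of G2/M members called higher lay above that of all genes on day 2 and nearer to it on day 3. The share of S members lay below it on both days. With 15 genes to a list, none of these counts is read as a result about its list. Between day 2 and day 3, 1 G2/M member and 0 S members were higher and 0 of either list lower, beside 14.2% higher and 16.5% lower of all 14654 genes. The comparisons share libraries, so they are not independent of one another.

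The median log2 ratio of day 2 over day 1 was 0.19 for the S members and 0.32 for the G2/M members, beside 0.23 for all genes. For day 3 over day 1 it was 0.19 and 0.54, beside 0.25 for all genes. For day 3 over day 2 it was -0.06 and 0.16, beside 0.02. The zero of these ratios depends on the scaling. TMM scaling, which centres on the bulk of genes, lowers every ratio of day 2 over day 1 by 0.32 on the log2 scale and every ratio of day 3 over day 1 by 0.30. Under it, the G2/M members of day 2 over day 1 had a median of -0.004, with 2 higher (TOP2A and HMGB2) and 0 lower, beside 9.43% of genes higher and 16.5% lower (9.41% and 16.6% under median-of-ratios scaling, with the same counts of members), and the S members had a median of -0.13, with 0 higher and 2 lower (MCM5 and GINS2). For day 3 over day 1 TMM left 5 G2/M members higher and 0 lower, and 0 S members higher and 2 lower, beside 20.6% higher and 27.2% lower of all genes. Median-of-ratios scaling gave the same 4 counts there, beside 21.6% and 26.1%, and for day 3 over day 2 it gave 1 S and 2 G2/M members higher and 0 lower, beside 15.7% and 15.4%. A change of scaling shifts every gene of a comparison by the same factor, so the G2/M median stayed above the S median, while its distance from no change on day 2 did not hold under TMM.

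**Figure D1:**
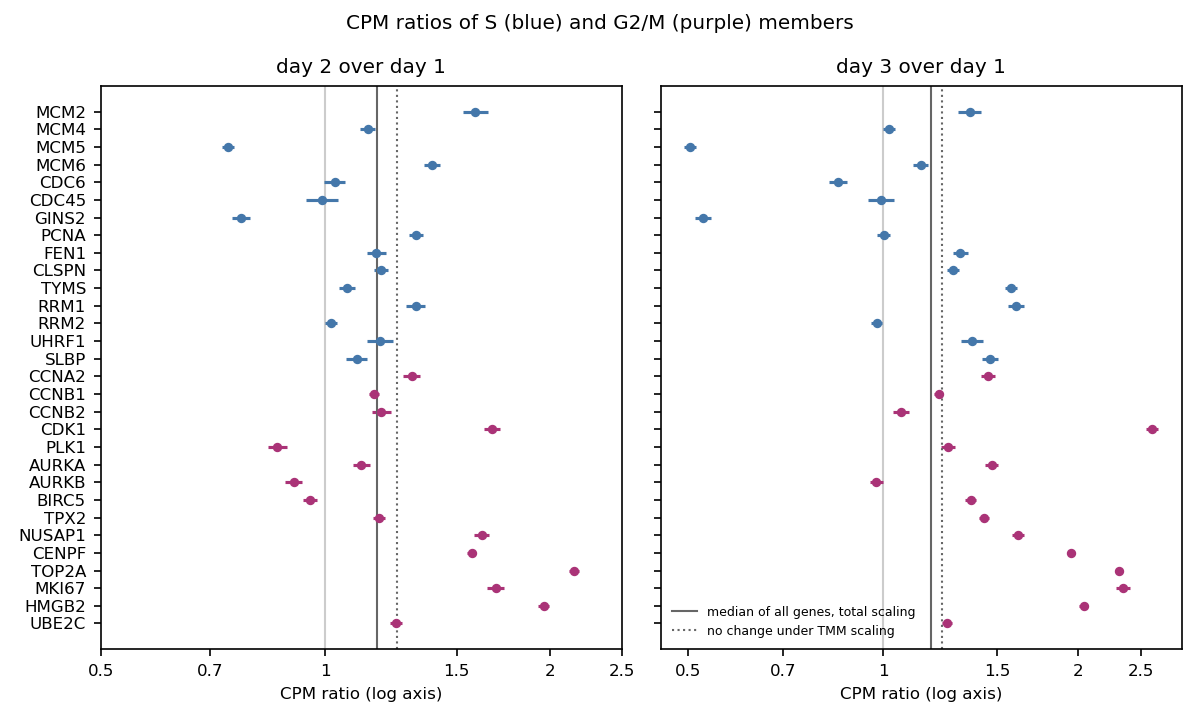
CPM ratios of day 2 over day 1 (left) and day 3 over day 1 (right) for each member on a log axis, S members in blue and G2/M members in purple. Bars are 95% counting intervals, the solid dark line is the median of all genes and the dotted line marks no change under TMM. TOP2A (2.15) is the highest ratio on the left, CDK1 (2.60) the highest and MCM5 (0.504) the lowest on the right.

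Among the S members, the genes that load and start the replicative helicase went in different directions. MCM5 (ENSG00000100297, chromosome 22, 35400134 to 35425431 on hg38), a subunit of the MCM helicase ring, was at 186, 138 and 93.7 CPM on days 1, 2 and 3. Day 3 was 1.99-fold below day 1 (1.95 to 2.03). GINS2 (ENSG00000131153, chromosome 16, 85676198 to 85690073), part of the GINS complex that turns the ring into an active helicase, was at 89.9, 69.4 and 47.4 CPM. Its day 3 level was 1.90-fold below day 1 (1.84 to 1.96), and both genes were lower on each later day. MCM2 (ENSG00000073111, chromosome 3, 127598410 to 127622436), another ring subunit, was instead at 28.4, 45.2 and 38.7 CPM, 1.59-fold higher on day 2 than on day 1 (1.53 to 1.65), or 1.27-fold under TMM. The subunit MCM6 had its highest level on day 2 as well, at 69.0, 96.0 and 78.9 CPM, a ratio of 1.39 (1.35 to 1.43) for day 2 over day 1. MCM4, also of the ring, was at 107, 122 and 109.5 CPM. CDC6, which loads the ring on origins, was at 53.5, 55.1 and 45.6 CPM, and CDC45, which joins GINS at the fork, at 23.8, 23.6 and 23.6 CPM. For CDC45 the ratio of day 3 over day 1 was 0.994 (0.948 to 1.04) by CPM and 0.805 under TMM. Subunits of 1 helicase ring thus had unequal day patterns, with MCM5 highest on day 1 and MCM2 and MCM6 highest on day 2, also under TMM, where the ratio of MCM6 for day 2 over day 1 was 1.11. MCM4 was highest on day 2 by CPM, with a ratio of 1.14 over day 1, which turned to 0.913 under TMM.

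At the replication fork, PCNA, the sliding clamp that holds the polymerase on DNA, was at 99.9, 132 and 100.1 CPM, highest on day 2. FEN1, which trims the flaps of lagging-strand fragments, was at 60.7, 71.0 and 79.9 CPM. CLSPN, an adaptor of the replication checkpoint, was at 107, 127 and 137 CPM. None of these fork genes passed 1.5-fold in any comparison of days.

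Of the genes of nucleotide supply, TYMS and RRM1 had higher ratios of day 3 over day 1 than any of the helicase genes, of which MCM2 was highest at 1.36, while RRM2 did not. TYMS, the enzyme that makes thymidylate, was at 85.8, 91.7 and 135 CPM, and day 3 was 1.58-fold above day 1 (1.54 to 1.61), or 1.28-fold under TMM. RRM1, the large subunit of ribonucleotide reductase, was at 52.9, 70.0 and 85.0 CPM, a ratio of 1.61 (1.56 to 1.65) for day 3 over day 1, or 1.30 under TMM. Its partner RRM2, the small subunit, was at 153, 155 and 149 CPM, with a ratio of 0.978 (0.960 to 0.996). The subunits of the same enzyme thus differed in their day pattern. Of the genes that copy chromatin, UHRF1, which reads half-methylated DNA behind the fork, was at 30.4, 36.0 and 41.7 CPM, and SLBP, which binds the stem-loop of histone mRNAs, was at 52.8, 58.2 and 77.3 CPM. Neither passed 1.5-fold, with SLBP at 1.46 (1.42 to 1.51) for day 3 over day 1.

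**Figure D2:**
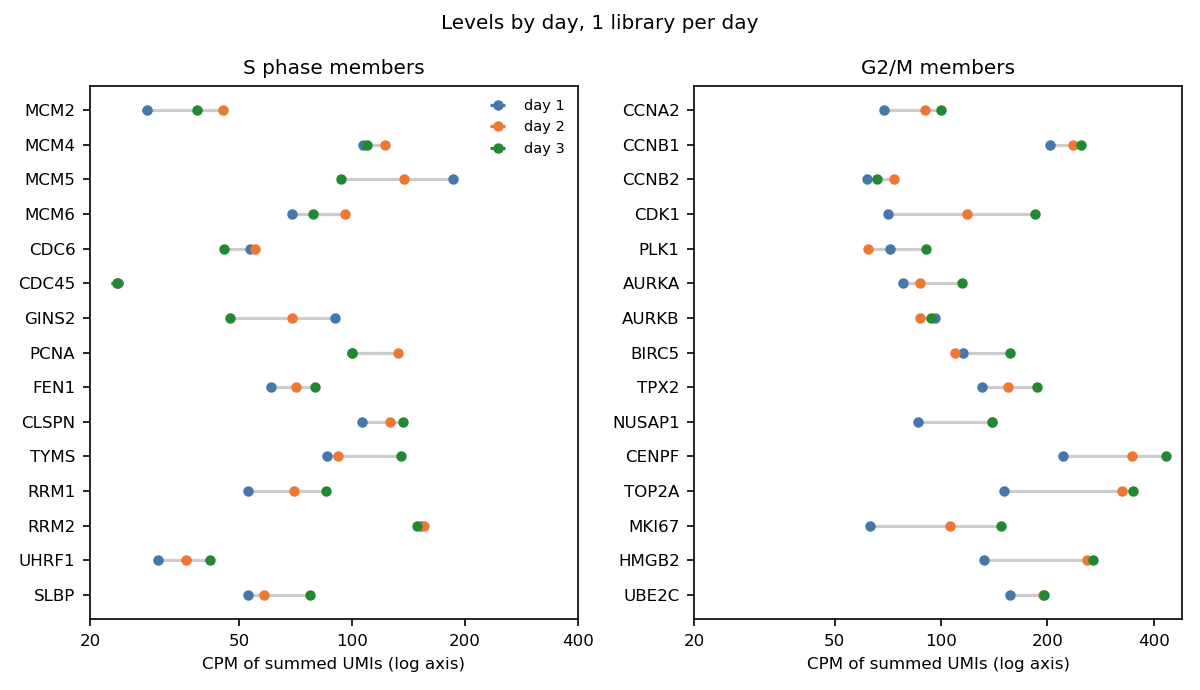
Level of each member on days 1, 2 and 3 in CPM, on a log axis, S members left and G2/M members right, 1 point per library with 95% Poisson intervals that are mostly narrower than the points. MCM5 and GINS2 go from 186 and 89.9 CPM on day 1 to 93.7 and 47.4 CPM on day 3, while CDK1 goes from 70.7 to 184 CPM.

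Of the cyclins and their kinase, CDK1 (ENSG00000170312, chromosome 10, 60778331 to 60794852), the kinase that drives entry into mitosis, had the largest ratio of day 3 over day 1 of all members. It was at 70.7, 118 and 184 CPM, higher on each later day. Day 2 was 1.67-fold above day 1 (1.63 to 1.72), day 3 was 1.56-fold above day 2 (1.52 to 1.59), and day 3 was 2.60-fold above day 1 (2.55 to 2.66), or 2.11-fold under TMM. The cyclins that activate it stood closer together. CCNA2, cyclin A of S phase and G2, was at 68.9, 89.9 and 100.1 CPM. CCNB1, the main mitotic cyclin, was at 204, 237 and 249 CPM, and CCNB2 was at 61.8, 73.5 and 65.8 CPM. None of these cyclins passed 1.5-fold between days, and under TMM the day 3 over day 1 ratio of CCNB1 was 0.987 and that of CCNB2 0.862.

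Genes of chromosome structure had the highest ratios as a group, from 1.69 to 2.15 for day 2 over day 1. TOP2A (ENSG00000131747, chromosome 17, 40388525 to 40417896), the topoisomerase that untangles sister chromatids, was at 151, 325 and 349.9 CPM. Day 2 was 2.15-fold above day 1 (2.12 to 2.19), 1.73-fold under TMM, and day 3 was 1.08-fold above day 2 (1.06 to 1.09), so most of the difference lay between the first and the second library. HMGB2, a chromatin protein that bends DNA, had the same order, at 132, 259 and 269 CPM, with a ratio of 1.96 (1.93 to 2.00) for day 2 over day 1 and 1.04 (1.02 to 1.06) for day 3 over day 2. MKI67, a protein that coats mitotic chromosomes and is widely used as a marker of dividing cells, was at 62.8, 106 and 147 CPM. It was higher on each later day, 1.69-fold (1.65 to 1.74) on day 2 over day 1 and 1.39-fold (1.36 to 1.42) on day 3 over day 2.

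Among the spindle and kinetochore genes, CENPF, a kinetochore protein of G2 and mitosis, was at 221, 348 and 432 CPM. Its day 2 level was 1.57-fold (1.55 to 1.59) and its day 3 level 1.95-fold (1.93 to 1.98) that of day 1. NUSAP1, which bundles spindle microtubules, was at 86.2, 139.7 and 139.5 CPM, 1.62-fold higher on both later days than on day 1. TPX2, which activates AURKA on the spindle, was at 131, 154 and 187 CPM and did not pass 1.5-fold. UBE2C, the ubiquitin-conjugating enzyme of the anaphase-promoting complex, was at 156, 194 and 196 CPM, a ratio of 1.25 (1.23 to 1.28) for day 3 over day 1 and 1.02 under TMM.

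The mitotic kinases PLK1, AURKB and AURKA and the partner BIRC5 had the 4 lowest ratios of day 2 over day 1 among the G2/M members, from 0.862 to 1.12, beside 1.16 for CCNB1, the lowest of the rest. A change of scaling shifts all of them alike and keeps this order. PLK1 (ENSG00000166851, chromosome 16, 23677656 to 23690367), the kinase that works from mitotic entry to exit, was at 71.8, 61.9 and 90.4 CPM. Its ratio was 0.862 (0.838 to 0.888) for day 2 over day 1 and 1.46 (1.42 to 1.502) for day 3 over day 2. AURKB, the kinase of the chromosomal passenger complex, was at 96.2, 87.3 and 93.9 CPM, and BIRC5, a partner in that complex, at 115, 109.8 and 157 CPM. AURKA, the kinase of the spindle poles, was at 78.1, 87.3 and 115 CPM. None of these 4 genes passed 1.5-fold between any days. The barcodes removed for quality held less of most members, with medians over the 30 members of 26.6, 49.3 and 35.1 CPM on days 1, 2 and 3. Their median mitochondrial share was 73.6%, 44.5% and 62.4%, beside 4.40%, 4.01% and 3.56% in kept cells. Mitochondrial UMIs count in the CPM total, and their part in these lower levels was not tested.

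Other genes of the same processes were followed on longer lists that hold no member. Their counts are to be read beside the shares of all genes, 21.1% higher and 5.62% lower for day 2 over day 1 and 32.1% and 17.8% for day 3 over day 1, or 9.43% and 16.5% and then 20.6% and 27.2% under TMM. Of 42 other G2/M genes, 16 were higher on day 2 than on day 1 and 0 lower, with a median log2 ratio of 0.50, and 22 were higher and 1 lower on day 3 than on day 1, with a median of 0.60. Both shares higher lay above that of all genes. Under TMM these counts were 1 higher and 3 lower for day 2, both below the shares of all genes, and 12 higher and 2 lower for day 3. The highest was CENPE, a kinetochore motor, at 73.9, 199 and 276 CPM, 2.69-fold (2.63 to 2.75) and 3.73-fold (3.66 to 3.81) above day 1. SMC4, a condensin subunit, was at 84.1, 149.8 and 236 CPM. Of 29 other S genes, 1 was higher and 0 lower on day 2 than on day 1, and 1 was higher and 2 lower on day 3, with medians of 0.26 and 0.09. Under TMM they were 1 higher and 2 lower on day 2, and 1 higher and 7 lower on day 3. None of these shares was above that of all genes. The higher one was E2F8, a repressor of the E2F family, at 6.91, 13.3 and 19.0 CPM. Among 15 other licensing genes 3 were higher and 1 lower on day 3 than on day 1, or 1 higher and 4 lower under TMM, each below the share of all genes. The gene lower by CPM was CDT1, which loads the MCM ring together with CDC6, at 77.2, 52.2 and 42.1 CPM, a ratio of 0.546 (0.529 to 0.563). MCMBP, which binds MCM proteins, was highest of the list, at 33.2, 48.4 and 62.1 CPM.

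Counts per cell at equal depth show how the summed levels were spread over cells. In cells thinned to 5000 UMIs, the 15 S members together gave a mean of 6.04, 6.50 and 6.36 UMIs per cell on days 1, 2 and 3. The 15 G2/M members gave 8.29, 11.6 and 13.1. The share of cells with at least 10 G2/M UMIs was 33.95% (32.4 to 35.5), 57.5% (56.3 to 58.7) and 64.7% (63.6 to 65.9). The share with at least 10 S UMIs was 11.5%, 15.6% and 16.4%. Cells at the top carried more G2/M UMIs on later days, with 95th percentiles of 16, 23 and 26, and cells at the bottom did too, with 5th percentiles of 2, 4 and 4. The variance of the G2/M sum was 2.19, 2.96 and 3.58 times its mean, where counting alone gives 1, and that of the S sum 1.30, 1.39 and 1.59 times. Spread beyond counting was 37.9%, 41.2% and 44.3% of the mean for the G2/M sum and 22.2%, 24.4% and 30.4% for the S sum. Cells with 0 G2/M UMIs were rare, at 0.543%, 0.163% and 0.180%. Free RNA in the droplets adds UMIs to every cell, and its part in these counts was not tested.

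**Figure D3:**
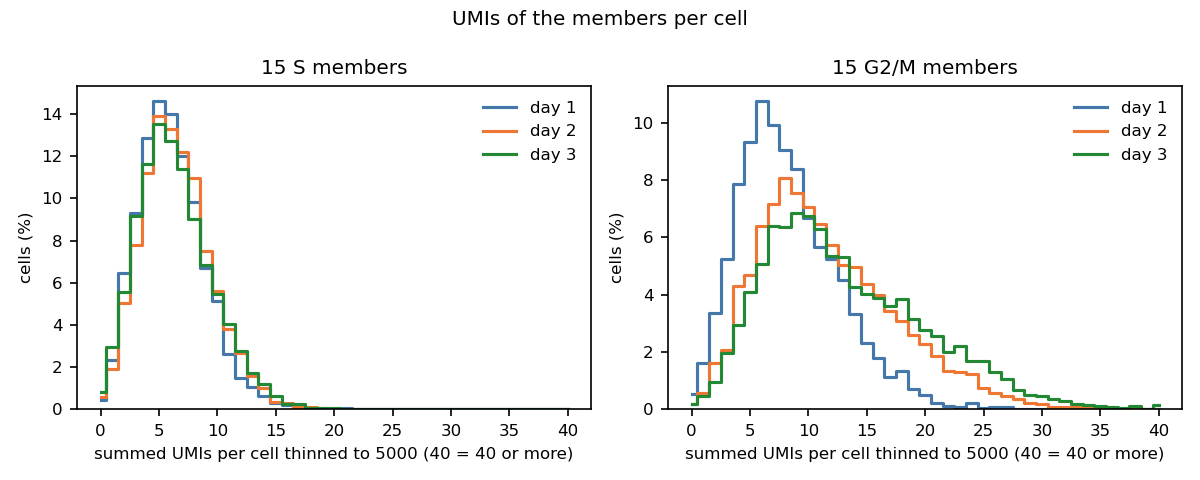
Share of cells (%) by the summed UMIs of the 15 S members (left) and the 15 G2/M members (right) in cells thinned to 5000 UMIs, 1 line per day. The S lines lie close together, with means of 6.04, 6.50 and 6.36, while the G2/M lines of days 2 and 3 reach further right, with means of 11.6 and 13.1 against 8.29 on day 1.

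Single members were seen in part of the cells. TOP2A had a UMI in 45.4%, 67.8% and 65.9% of thinned cells, and in 90.0%, 86.1% and 88.2% of the same libraries without thinning. Among cells with 0 UMIs of the other 14 G2/M members, taken for comparison, the share was 24.0% (9.36 to 45.1) of 25 cells, 15.4% (1.92 to 45.4) of 13 cells and 14.3% (1.78 to 42.8) of 14 cells. These comparison cells had fewer UMIs before thinning than cells with many UMIs of the other members, with medians of 25263, 8756 and 11401 against 46811, 17701 and 21272.5. MKI67 had a UMI in 25.1%, 37.2% and 45.5% of thinned cells and in 78.1%, 68.7% and 79.4% without thinning. Among its comparison cells the share was 5% of 20 cells, 21.4% of 14 and 20% of 15. MCM5 went the other way, with 59.1%, 47.4% and 36.1% of thinned cells and 97.2%, 80.4% and 76.1% without thinning. Among its comparison cells, those with 0 UMIs of the other 14 S members, the share was 58.3% (40.8 to 74.5) of 36 cells on day 1. It was 29.1% of 55 and 20.3% of 69 cells on days 2 and 3. The day 1 share of all cells does not stand above that of these cells. Whether the comparison cells express MCM5 was not tested, so their share is not read as background.

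To see the members by cell cycle position without using them, cells of each library were split by their UMIs of the 42 other G2/M genes, and cells at or above the 75th percentile were set against cells at or below the 25th. Of the G2/M members, 10, 12 and 11 of 15 were at least 1.5-fold higher in the high cells on days 1, 2 and 3 and 0 were lower, beside 1.64%, 2.27% and 1.81% of all genes higher and 3.49%, 5.9% and 3.52% lower. Their median ratio was 1.82, 1.96 and 2.27. The widest contrast on day 3 was that of TOP2A, at 142 CPM in the low and 529.98 CPM in the high cells, 3.74-fold (3.52 to 3.98), after 2.28-fold on day 1 and 2.86-fold on day 2. AURKA followed with 2.73-fold, 3.27-fold and 3.55-fold, then UBE2C with 1.87-fold, 2.94-fold and 3.26-fold, and PLK1 with 1.82-fold, 2.40-fold and 3.11-fold. BIRC5 at 1.36-fold, 1.41-fold and 1.32-fold and HMGB2 at 1.496-fold, 1.47-fold and 1.41-fold were among the flattest. PLK1, with the lowest ratio of day 2 over day 1 of the G2/M members, was at their median in this split on day 1 and had the fourth highest ratio on days 2 and 3. HMGB2 instead had one of the highest ratios between days and one of the lower ratios of the G2/M members in this split.

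No S member passed 1.5-fold in that split on days 1 and 2, and some did on day 3. Their median ratio in cells high over low in the other G2/M genes was 1.09, 0.961 and 0.745 on days 1, 2 and 3, with 0 members higher on any day and 0, 0 and 4 lower. The lowest on day 3 were PCNA at 0.566 (0.515 to 0.622), from 132 to 74.5 CPM, and CDC6 at 0.618 (0.539 to 0.709). On day 1 PCNA had a ratio of 1.18 (1.048 to 1.34). TYMS, RRM1 and RRM2 had ratios of 0.956, 0.976 and 0.861 on day 3, nearest to 1 of the S members. The high cells also had more UMIs before thinning, 1.19, 1.26 and 1.34 times the median of the low cells, and the part of depth in these ratios was not tested.

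**Figure D4:**
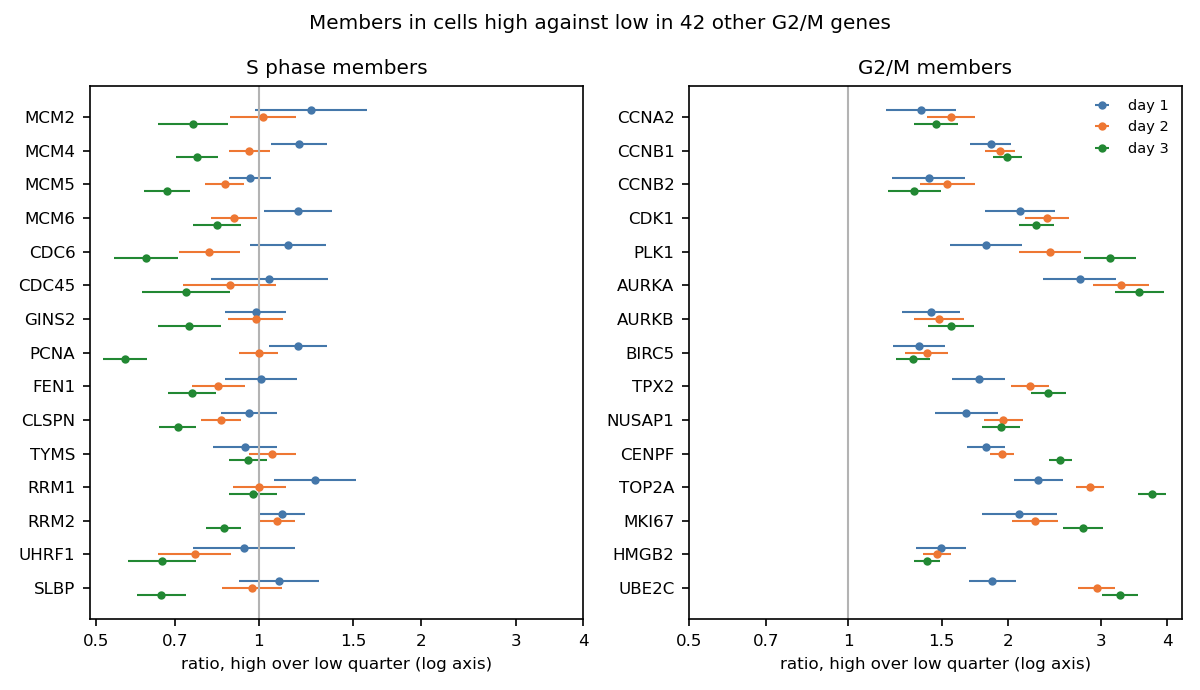
Ratio of each member's thinned UMIs in cells at or above the 75th over cells at or below the 25th percentile of 42 other G2/M genes, on a log axis, with 95% counting intervals, 1 point per day. All G2/M members lie above 1 on every day, up to 3.74 for TOP2A on day 3, and the S members lie around 1 on day 1 and below it on day 3, down to 0.566 for PCNA.

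The same split by the 29 other S genes gave the S members a median ratio of 1.27, 1.30 and 1.64 on days 1, 2 and 3, with 3, 1 and 10 of 15 higher and 0 lower, beside 7.71%, 2.24% and 6.97% of all genes higher and 1.56%, 2.03% and 3.97% lower. On day 3 UHRF1 was at 1.91-fold (1.65 to 2.22), CDC6 at 1.86-fold (1.62 to 2.14), MCM6 at 1.85-fold (1.66 to 2.07) and PCNA at 1.84-fold (1.67 to 2.02). TYMS stayed near 1, at 0.885, 1.09 and 1.07. The G2/M members had medians of 1.10, 0.913 and 0.786 in this split, with 1, 0 and 0 higher and 0, 3 and 5 lower. UBE2C was the lowest on day 3, at 0.458 (0.423 to 0.495), then TOP2A at 0.506 (0.478 to 0.537) and AURKA at 0.517 (0.466 to 0.572). The high cells of this split had 0.805, 0.907 and 0.903 times the median UMIs of the low cells before thinning, and the part of depth was not tested. In both splits the distance between the medians of the S and the G2/M members was widest in the day 3 library.

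Correlations between pairs of members over the cells of a library were weak, and the part of sparse counts in this was not tested. They are a description over 3499, 6747 and 6675 cells that share a library. The median Pearson r of the 105 G2/M pairs was 0.05, 0.07 and 0.08 on days 1, 2 and 3, that of the 105 S pairs 0.02, 0.02 and 0.03, and that of the 225 mixed pairs 0.002, -0.01 and -0.03. The G2/M pair with the highest value on day 3 was CENPF with TOP2A, at 0.19, 0.28 and 0.34. The lowest mixed pair on day 3 was PCNA with TOP2A, at -0.01, -0.07 and -0.14.

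Phase calls put each cell in S, G2/M or neither by 2 scores over the members, each against control genes of like level, with the libraries scored together at 5000 UMIs. Called S were 37.2% (35.6 to 38.9), 36.2% (35.0 to 37.3) and 35.2% (34.0 to 36.3) of cells on days 1, 2 and 3. Called G2/M were 12.7% (11.6 to 13.9), 26.1% (25.04 to 27.2) and 34.7% (33.6 to 35.9), and neither 50.04%, 37.8% and 30.1%. A call is a range of a score, and 888, 1569 and 1393 cells (25.4%, 23.3% and 20.9%) lay within 0.05 of the threshold. Without thinning, the G2/M shares were 12.2%, 32.9% and 46.5% and the S shares 74.3%, 51.3% and 44.1%, so the calls depended on depth. The cells called G2/M had 1.11, 1.19 and 1.22 times the median UMIs of cells called neither.

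The calls moved with how they were made. Over 7 ways of calling, the G2/M share ran from 12.7% to 57.3% on day 1, from 26.1% to 63.8% on day 2 and from 31.6% to 73.1% on day 3. It was higher on day 2 than on day 1 in 7 of 7 ways and higher on day 3 than on day 2 in 6 of 7. The exception was the scoring of each library by itself, where it was 44.2% on day 2 and 31.6% on day 3. The S share was lower on day 2 than on day 1 in 6 of 7 ways and lower on day 3 than on day 2 in 5 of 7. A second random thinning to the same depth moved the S share of day 1 from 37.2% to 46.1%, further than its counting interval. Scoring with the lists that hold no member called only 3.26%, 1.62% and 2.17% of cells neither on days 1, 2 and 3. No share of cycling cells is read from these calls.

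**Figure D5:**
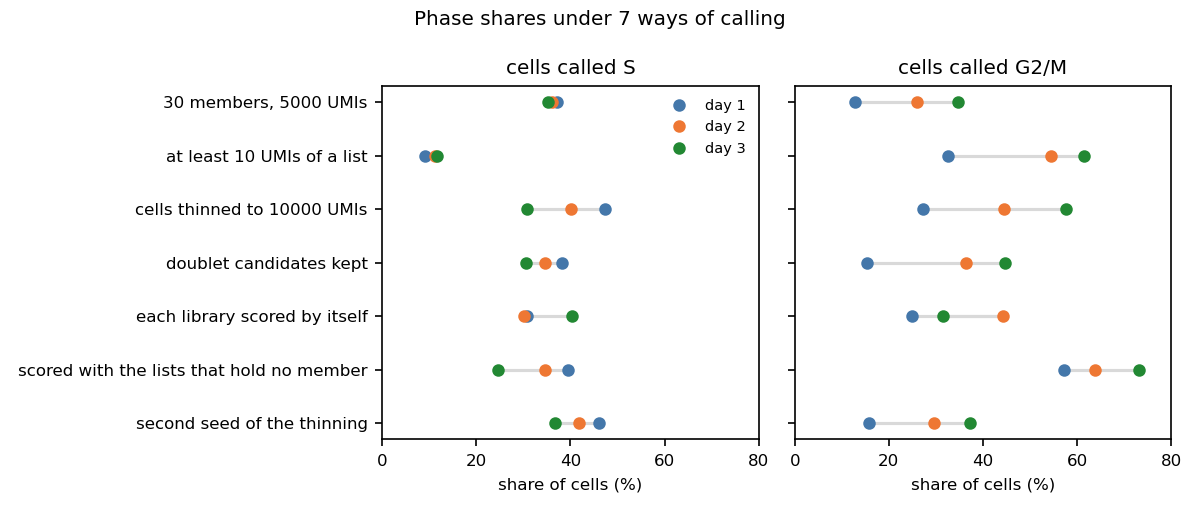
Share of cells (%) called S (left) and G2/M (right) on each day under 7 ways of calling, 1 point per library. The G2/M share is lowest on day 1 in every row, and the order of days 2 and 3 turns only where each library is scored by itself, at 44.2% and 31.6%.

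Cells were also set apart by marker UMIs within a library, and few members passed 1.5-fold between the classes. On day 2, 1154 cells had SOX2, a pluripotency factor, and no UMI of the streak and mesoderm genes TBXT, MIXL1 or MESP1, and 1285 cells had MESP1, a factor of early mesoderm. Between MESP1 and SOX2 cells 0 of 15 S and 0 of 15 G2/M members passed 1.5-fold in either direction, beside 9.04% of all genes higher and 12.1% lower, with median log2 ratios of 0.14 and 0.19 beside -0.02 for all genes. The members with the largest ratio were MKI67, at 89.8 CPM in SOX2 and 122 CPM in MESP1 cells, 1.36-fold (1.22 to 1.53), SLBP at 1.34-fold (1.15 to 1.55) and RRM2 at 1.31-fold (1.20 to 1.44). At the low end, MCM5 was at 148 and 121 CPM, a ratio of 0.818 (0.741 to 0.903), and CDC6 at 0.847 (0.729 to 0.983). Called G2/M were 22.1% (19.7 to 24.6) of the SOX2 cells, 27.7% (26.0 to 29.4) of cells with TBXT or MIXL1 but no MESP1, and 31.5% (29.0 to 34.1) of the MESP1 cells. Scored with the lists that hold no member, the day 2 shares were 59.4% (56.5 to 62.3), 66.0% (64.3 to 67.8) and 73.2% (70.7 to 75.6), in the same order. That scoring called only 1.30%, 1.06% and 1.01% of these cells neither, beside 43.3%, 35.2% and 30.8% with the members. Its G2/M share is thus nearly what its S share leaves, which makes it a weak check. On day 1 the SOX2 cells were at 12.6% (11.1 to 14.2) and the 222 streak cells at 19.8% (14.8 to 25.7), while the lists without members gave 57.9% (55.7 to 60.2) and 59.5% (52.7 to 66.0), with intervals that overlap. The S shares of day 2 differed in order between the scorings. For SOX2, streak and MESP1 cells they were 34.6%, 37.1% and 37.7% with the members and 39.3%, 32.9% and 25.8% with the lists without members. Of all day 2 cells called S with the members, 51.8% were called G2/M with the lists without members. Cells in both classes were left out of a comparison with SOX2 cells. In the other 469 HAND1 cells of day 2, MCM5 was the 1 member past 1.5-fold, at 148 CPM in SOX2 and 94.7 CPM in HAND1 cells, a ratio of 0.642 (0.551 to 0.745), beside 10.3% of genes higher and 10.5% lower. On day 1 the member past 1.5-fold in 182 GATA3 cells over SOX2 cells was CDC45, at 1.62 (1.11 to 2.30), beside 4.22% and 1.3%. In the 59 HAND1 cells of day 1 over all other cells TYMS was at 1.54 (1.08 to 2.14) and RRM1 at 0.475 (0.190 to 0.983), beside 3.17% and 1.6%.

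In the day 3 library the SOX2 class held 70 cells, so classes were set against all other cells. The 70 cells themselves had MCM2 at 1.82 (1.18 to 2.71) and MCM5 at 1.53 (1.14 to 2.02) of the other cells, and TYMS at 0.632 (0.426 to 0.904) and SLBP at 0.608 (0.354 to 0.975), beside 11.2% of genes higher and 5.92% lower. Set against 58 of them, HAND1 cells had TYMS, SLBP and CDK1 higher and MCM2, MCM5, GINS2 and PCNA lower, beside 5.83% higher and 12.6% lower, and other day 3 classes set against SOX2 cells share this small reference. The 4749 cells with HAND1, which marks lateral and extraembryonic mesoderm, had 0 members higher and 1 lower, beside 5.48% of genes higher and 14.3% lower, with medians of -0.17 for the S and 0.13 for the G2/M members. The lower one was MCM5, at 126 CPM in other cells and 83.2 CPM in HAND1 cells, a ratio of 0.661 (0.615 to 0.710). CDK1 was at 131 and 184 CPM, a ratio of 1.40 (1.31 to 1.49), and TYMS at 1.36 (1.26 to 1.45). MCM5, CDK1 and TYMS, named as the ends of this contrast, differed in the same direction as on day 3 against day 1. In HAND1 cells CDK1 and TYMS differed by less than 1.5-fold. The S median of -0.17 stood beside 0.19 by CPM for day 3 over day 1, or -0.11 under TMM. These named members do not stand for the lists, and a link between class and day was not tested. In the 4266 cells with LHX1, a homeobox gene of the streak and its mesoderm, CCNA2 was at 1.31 (1.21 to 1.41) and HMGB2 at 0.799 (0.766 to 0.834), and 0 members passed 1.5-fold, beside 6.31% of genes higher and 14.1% lower. The 234 cells with TFAP2A, a factor of amnion and surface ectoderm, had 0 members past 1.5-fold as well, beside 9.28% higher and 5.32% lower, with PLK1 lowest at 0.737 (0.580 to 0.924) and SLBP highest at 1.29 (1.07 to 1.55). Called G2/M were 25.6% (20.2 to 31.7) of the TFAP2A cells and 36.5% (35.1 to 37.9) of the HAND1 cells, or 62.8% (56.3 to 69.0) and 75.5% (74.2 to 76.7) with the lists that hold no member. The HAND1, LHX1 and TFAP2A classes may share cells. They are thus not separate populations, and their values are not independent of one another.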

How the data were processed

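Single UCLA1 cells of 3 days were measured by droplet RNA sequencing. The authors deposited raw UMI counts per gene and barcode, made with Cell Ranger 5.0.1 on hg38 per the submitters' processing notes. Groups came from the time labels. Barcodes under 1000 genes or over 20% mitochondrial UMIs were removed (1212, 2688 and 599 on days 1, 2 and 3). Doublets were scored against simulated pairs over 2000 variable genes and 30 principal components, and the top 0.8% per 1000 barcodes (144, 668 and 457 cells) were removed, although the scores separated weakly. CPM has exact Poisson, ratios exact conditional binomial and shares exact binomial intervals. Phase was scored with scanpy 1.11.5, and TMM factors came from edgeR 4.0.16, with no edgeR test. The scripts were tested on simulated data. Positions are from GENCODE release 44. TYMS overlaps ENOSF1 on the other strand, and no source used here gives whether counting used strand. The members and lists were chosen with earlier results of these data known. All members were open to naming, and up to 4 genes per other list and comparison with the largest ratio past 1.5-fold and at least 10 CPM, and up to 4 members at each end per class of cells. The splits by other S and G2/M genes and the spread beyond counting were added after seeing the data. Alternatives covered scaling, filters, doublets, thinning and calling.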

Additional observations from a re-analysis of the deposited data

How the results depend on the processing

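For day 2 over day 1, TMM and median-of-ratios scaling turned the S median log2 ratio from 0.19 to -0.13 and -0.13 and the G2/M median from 0.32 to -0.0039 and -0.0059, with 0 S members higher and 2 lower and 2 G2/M members higher under both. For day 3 over day 1, they turned the S median from 0.19 to -0.11 and -0.080, with 0 higher under both, and moved the G2/M median from 0.54 to 0.23 and 0.27. Median-of-ratios scaling moved day 3 over day 2 to -0.011 with 1 S member higher and 0.20 with 2 G2/M members higher, and thinned cells also gave 2 G2/M members higher there. Totals without mitochondrial and ribosomal protein genes gave S medians of 0.11 for day 2 and 0.094 for day 3 against day 1, the latter with 0 higher, and G2/M medians of 0.24 and 0.44, and all deposited barcodes gave a G2/M median of 0.28 for day 2 over day 1. Shares called S on days 1, 2 and 3 were 47.4%, 40.1% and 30.7% at 10000 UMIs, 46.1%, 41.9% and 36.8% with a second thinning, 39.5%, 34.6% and 24.7% with lists that hold no member, 30.7%, 30.2% and 40.4% with each library by itself and 9.17%, 11.3% and 11.8% by at least 10 UMIs, and 34.6% and 30.6% on days 2 and 3 with doublet candidates kept. Shares called G2/M were 27.2%, 44.6% and 57.7% at 10000 UMIs, 15.7%, 29.7% and 37.2% with a second thinning, 57.3%, 63.8% and 73.1% with lists that hold no member, 24.98%, 44.2% and 31.6% with each library by itself, 15.3%, 36.5% and 44.6% with doublet candidates kept and 32.7%, 54.5% and 61.5% by at least 10 UMIs. In the scoring with doublet candidates, 15.4%, 37.0% and 44.5% of the other cells were called G2/M, and 14.6%, 31.3% and 46.8% of the candidates. The calls of the same cells thus moved when they were scored together with the candidates. At 10000 UMIs, the G2/M median of MESP1 over SOX2 cells on day 2 was 0.28, the split by other G2/M genes on day 2 gave medians of 0.818 (S) and 2.26 (G2/M), and the S spread was 20.9%, 21.5% and 27.7%, the last group chosen after seeing the data. Causes were not tested. The other 210 main values under alternatives kept their direction and stayed within their counting interval, 1.5 times their count or, for the spread, 5% of their value. Of 764 further values under alternatives, 495 stayed the same in this sense and 269 moved. Median-of-ratios scaling moved 86 of these, totals without mitochondrial and ribosomal protein genes 64, TMM scaling 60 and thinning to 5000 UMIs 47. No paired analysis was possible because each day has 1 library with no replicate number, and for the same reason no library could be left out. Depth limits single members per cell, and classes under 50 cells were not compared.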

Other observations

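Cell cycle regulators, spindle checkpoint genes and p53 target genes were followed on lists of 11 to 13 measured genes. Beside their counts stand the shares of all genes for day 3 over day 1, 32.1% higher and 17.8% lower by CPM and 20.6% and 27.2% under TMM, and with so few genes no count is read as a result about its list. CDK6, the kinase that starts the passage from G1 to S, was at 49.0, 65.9 and 182 CPM on days 1, 2 and 3, 2.77-fold higher on day 3 than on day 2 (2.70 to 2.84). CCND2, a cyclin that pairs with it, was at 213, 274 and 154 CPM, a ratio of 0.561 (0.552 to 0.571) for day 3 over day 2, while CCND3, another such cyclin, was at 14.3, 15.5 and 26.4 CPM. DBF4, the activator of the origin-firing kinase, was at 81.7, 110.2 and 161 CPM, and its kinase CDC7 at 17.9, 29.9 and 29.9 CPM. Of 12 such genes, 6 were higher and 0 lower on day 3 than on day 1, and 3 were higher and 2 lower under TMM.

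Among 13 CDK inhibitors, pocket proteins and related genes, of which 11 were measured, 5 were higher and 2 lower on day 3 than on day 1, or 3 and 2 under TMM. BTG1, an antiproliferative gene, was at 70.4, 42.4 and 25.9 CPM, a ratio of 0.369 (0.355 to 0.383), and RB1, which restrains E2F factors, at 27.6, 41.9 and 49.2 CPM. Of 13 E2F, MYB and FOXM1 factors and partners, 3 were higher and 4 lower, or 1 and 4 under TMM. The E2F partners TFDP1 and TFDP2 went in opposite directions, at 49.0, 60.3 and 89.2 CPM and at 137, 146 and 80.9 CPM, and so they did under TMM, at ratios of 1.47 and 0.479 for day 3 over day 1. LIN54, the subunit of the DREAM complex that binds the CHR element, was at 7.19, 14.1 and 21.6 CPM, 3.01-fold higher on day 3 than on day 1 (2.81 to 3.22). Of 13 genes of the spindle checkpoint and the anaphase-promoting complex, 5 were higher and 0 lower on day 3, or 4 and 1 under TMM, among them BUB1 at 36.5, 64.0 and 72.6 CPM. Of 12 p53 target genes, 11 were measured, 3 were higher and 1 lower, or 2 and 3 under TMM, with GADD45A at 18.9, 29.8 and 52.3 CPM.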
